A study of Rattus norvegicus with 20 samples.

Results

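The genes of respiratory complex I were followed across the right ventricle of rats with chronic pulmonary embolism (PE). Their members were all probe sets (a probe set is a group of probes for 1 transcript) whose single gene symbol in the platform annotation begins with Nduf: 46 probe sets of 42 genes, out of 31042 probe sets tested. Of these genes, 34 encode structural subunits (37 probe sets), 6 encode assembly factors of the Ndufaf series (7 probe sets), and the remaining 2 are Ndufa4 and its paralogue Ndufa4l2. Ndufv3, Ndufa7, Ndufa9 and Ndufaf7 had 2 probe sets each, and a gene with several was represented by the one with the highest mean signal. A further 2 probe sets list several symbols including an Nduf gene and were left out, and Ndufs5, Ndufa10, Ndufaf2, Ndufaf6 and the subunits encoded in mitochondrial DNA were not analysed here.

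RNA came from 20 pieces of right ventricle, 1 Affymetrix array each, with 5 arrays for each of the 4 combinations of treatment (vehicle or PE) and region (apex or outflow tract). All donors were male Sprague Dawley rats of about 350 g, and the labels name no genetic change. PE rats had been injected through the right jugular vein with polystyrene microspheres of 25 micron, 2000000 for each 100 g of body weight, in 0.01% Tween-20, and vehicle rats with the Tween-20 solution without spheres. Hearts were taken at week 6, and each ventricle was cut into the outflow tract, at its base, and the apex, so that apex and outflow arrays of 1 treatment with 1 replicate number were taken as coming from 1 rat. The injected volume was 0.15 ml per 100 g in the sample fields, while the design text gives 0.01 ml per 100 g for the vehicle. Whole tissue was used, so the arrays hold the RNA of all cell types of the piece.

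Complex I, NADH:ubiquinone oxidoreductase, is the entry point of NADH electrons into the mitochondrial respiratory chain and the largest of its complexes. A peripheral arm in the matrix oxidises NADH and carries its electrons over iron-sulfur clusters to ubiquinone, and a membrane arm uses the released energy to pump protons. Core subunits hold the cofactors and the proton channels and are shared with bacteria, the core subunits of the membrane arm are made from mitochondrial DNA, and supernumerary subunits surround them. Assembly factors help to build the complex without staying in it. Heart muscle is among the tissues richest in mitochondria and covers most of its energy need by oxidation. Ndufa4 carries a complex I name but is known as a subunit of complex IV, cytochrome c oxidase, and Ndufa4l2 is its paralogue, known to be induced under hypoxia.

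Promoter sequence was available for 40 of the 42 genes (RefSeq, assembly GRCr8), and the genes lie on 16 chromosomes. Ndufa8 and Ndufb9 had no entry. Windows of 5 genes are shown because they hold the motifs searched or, for Ndufb8, because it had the lowest fold change of all members and held none. Each window is the 150 bases before the annotated start, 5′ to 3′ on the strand of the gene, and capitals mark a motif on either strand.
Ndufs8 (chr1:210573699-210573848, minus strand): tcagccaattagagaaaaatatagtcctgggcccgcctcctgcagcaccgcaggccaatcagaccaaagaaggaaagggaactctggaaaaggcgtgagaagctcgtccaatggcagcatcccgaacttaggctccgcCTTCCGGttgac
Ndufa13 (chr16:19560376-19560525, plus strand): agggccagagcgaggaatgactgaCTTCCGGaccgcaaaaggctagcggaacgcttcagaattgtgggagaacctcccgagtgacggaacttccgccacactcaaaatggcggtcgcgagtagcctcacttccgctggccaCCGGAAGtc
Ndufa11 (chr9:1637464-1637613, plus strand): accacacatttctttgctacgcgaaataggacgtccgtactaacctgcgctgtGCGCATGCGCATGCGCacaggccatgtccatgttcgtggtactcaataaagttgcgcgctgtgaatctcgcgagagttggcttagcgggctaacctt
Ndufaf5 (chr3:147961462-147961611, plus strand): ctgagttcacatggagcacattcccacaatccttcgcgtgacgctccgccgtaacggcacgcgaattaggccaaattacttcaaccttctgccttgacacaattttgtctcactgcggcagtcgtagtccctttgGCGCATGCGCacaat
Ndufb8 (chr1:253362937-253363086, minus strand): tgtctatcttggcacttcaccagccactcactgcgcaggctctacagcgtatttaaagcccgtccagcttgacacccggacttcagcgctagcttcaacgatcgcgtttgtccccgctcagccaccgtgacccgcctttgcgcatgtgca
The motifs were the letters CCGGAAG for the ETS family, to which the nuclear respiratory factor GABP belongs, GCGCATGCG for NRF1, and TCAAGGTCA with its core AAGGTCA, which lies inside it, for the estrogen-related receptors. They were counted on both strands from 250 bases before to 50 bases after the start. The ETS letters were found in 9 of 40 Nduf promoters (22.5%), those of Ndufs1, Ndufs8, Ndufa2, Ndufa6, Ndufa1, Ndufa13, Ndufb7, Ndufaf1 and Ndufaf8, against 8.75% of all 33469 promoters. NRF1 letters were found in Ndufa11, Ndufaf4 and Ndufaf5, 3 of 40 (7.5%) against 1.52% of all. The full estrogen-related receptor motif was in 0 of 40 (0.433% of all) and its core in Ndufs6, Ndufb2 and Ndufb4, 3 of 40 (7.5%) against 4.61%. Nduf promoters were also richer in CpG, with a median observed to expected ratio of 0.835 against 0.392 and a median GC content of 56.7% against 51.7%. These are matches of letters only, and the arrays measured no binding.

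In the outflow tract the complex I genes were lower in PE rats than in vehicle rats. Of 46 probe sets, 41 fell and 0 rose at an adjusted p under 0.05 (limma, Benjamini-Hochberg over all probe sets), where 14.9% of all probe sets tested fell and 19.6% rose. All 34 structural genes fell, by a median of 1.19 on the log2 scale (2.28-fold on the scale of the signal plus 16), with values between -1.78 for Ndufb8 and -0.61 for Ndufa1. Of the 6 assembly genes 5 fell, and their median was -0.69. The median of all probe sets was 0.05, and among the 2126 probe sets with a mean signal at least that of the dimmest structural gene it was -0.33, with 49.6% called lower. In 32 of 46 probe sets, and in 26 of the 34 structural genes, all 5 PE arrays were under the vehicle range, against 9.98% of all probe sets and 40.7% of these bright ones. Over the whole array 4637 probe sets were called lower and 6083 higher, a split that turned to 5966 and 4415 when arrays were centred on their medians and to 5367 and 5177 after quantile normalization, while 45 of 46 members (46% of all probe sets as deposited) lay below 0 under each scaling. In whole tissue, fewer cells of a type and less RNA per cell cannot be told apart.

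**Figure D1:**
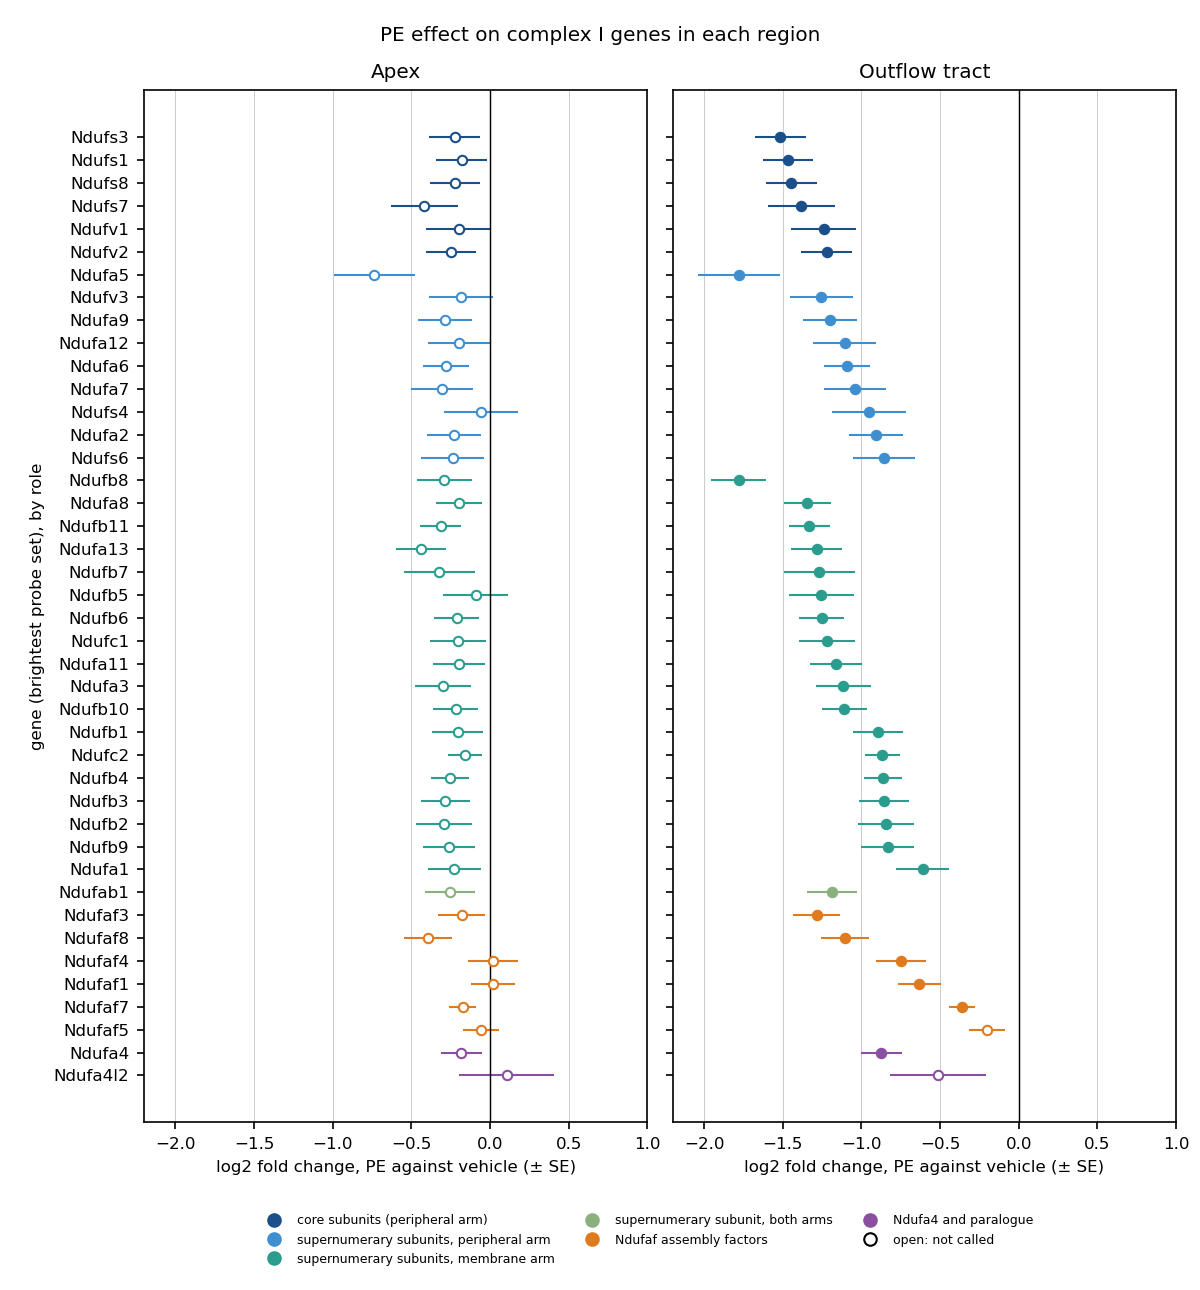
Log2 fold change (x axis, ± SE from limma) of PE against vehicle for each Nduf gene, in the apex (left) and the outflow tract (right), grouped by role in colour; filled points passed an adjusted p of 0.05 and open points did not. In the outflow tract all 34 structural genes are filled and lie between -1.78 and -0.61, and in the apex no point is filled.

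The arrays of the PE outflow group were not alike, and this bears on every value of that group. GAPDH control probes at the 3′ and 5′ ends of the transcript give a ratio that goes up when RNA or its labelled copy is short. This 3′ to 5′ ratio was 1.71, 6.12, 1.70, 2.20 and 2.34 in replicates 1 to 5, against 1.38 to 1.83 on the other 15 arrays. Replicate 2 also had the lowest mean correlation with its own group (0.929, against at least 0.959 on all other arrays). The median deviation of the 34 structural genes from the vehicle outflow mean was -0.92, -0.46, -1.18, -1.60 and -1.70 in replicates 1 to 5. By this median replicate 2 was the array closest to vehicle. It was the highest of the 5 for 25 structural genes and replicate 1 for the other 9. Replicate 5 was the lowest for 25, replicate 4 for 8 and replicate 3 for 1. For the 6 core subunits alone the median was -1.04 in replicate 1 and -1.08 in replicate 2. The assembly genes had medians of -0.38, -0.51, -0.70, -1.02 and -0.81, so that replicate 1 was closest to vehicle there. Without replicate 2 the outflow count was 42 of 46 and the structural median -1.32, and with replicates 1 and 3 alone, whose GAPDH ratio lay in the range of the other groups, every structural gene was still called.

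The 6 core subunits, all of the peripheral arm, fell together, with a median of -1.41, and none of their PE outflow arrays reached the vehicle range. Ndufs3, a core subunit without a cofactor of its own, had signals of 18139, 16917, 17232, 18090 and 20071 in vehicle outflow replicates 1 to 5 and of 8363, 7909, 7376, 5092 and 4001 in the PE outflow replicates. The vehicle arrays lay close together, and the PE arrays were spread out far below them. At -1.52 ± 0.16 on the log2 scale (SE, adjusted p = 9.22e-07) its fall was the deepest of the core subunits. Ndufs1, which holds several of the iron-sulfur clusters, followed at -1.47 ± 0.16, from 19990 ± 1137 (SD, n = 5) to 7511 ± 2284. Ndufs8 and Ndufs7, which carry the last clusters before ubiquinone, had -1.45 ± 0.16 and -1.38 ± 0.21. Ndufv1, which binds NADH and the flavin, had -1.24 ± 0.21. Ndufv2, which holds an iron-sulfur cluster beside the flavin, had the smallest fall of the core, -1.22 ± 0.16 (adjusted p = 8.18e-06). Its signals were 28250, 26561, 23681, 27432 and 28471 in vehicle and 16215, 12878, 13190, 8800 and 8292 in PE. The intervals of 1 SE around the lowest and the highest of these 6 values meet. The genes were read on the same arrays, so this does not compare them with each other, and their order was not tested.

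Around them, the 9 supernumerary subunits of the peripheral arm fell by a median of 1.09. The lowest was Ndufa5, at -1.78 ± 0.26 (adjusted p = 2.42e-05). Vehicle outflow signals of Ndufa5 were 18115, 10923, 8758, 13170 and 14624, and PE signals 6262, 3646, 3120, 2826 and 3425. The groups did not overlap, although Ndufa5 was among the most variable members between vehicle rats. Ndufa9, which lies at the joint of both arms, fell on both of its probe sets, by 1.20 on the brighter and 1.39 on the dimmer. Ndufa12, Ndufa6 and Ndufa2 had -1.11 ± 0.20, -1.09 ± 0.15 and -0.91 ± 0.17. Ndufs4, known as a subunit whose loss causes severe complex I deficiency, had -0.95 ± 0.24 (adjusted p = 0.00332), from 2931 ± 529 to 1604 ± 726. Ndufs6, which joins late in assembly, had -0.86 ± 0.20. Of its PE arrays 4 were under the vehicle range, and replicate 2 was above all vehicle outflow arrays.

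Ndufv3 and Ndufa7 gave different answers on their probe sets. The brighter probe set of Ndufv3 read 19604, 17340, 18569, 18802 and 19901 in vehicle outflow and 9364, 14674, 7545, 5881 and 4996 in PE, or -1.25 ± 0.20 on the log2 scale (adjusted p = 6.24e-05). On the dimmer one the signals were 275, 349, 376, 304 and 522 against 261, 271, 354, 305 and 255, which overlap, and the change was -0.30 ± 0.16 (adjusted p = 0.181), or -0.43 after quantile normalization (adjusted p = 0.0498). For Ndufa7 the brighter probe set read 14704, 14916, 14367, 14448 and 20259 in vehicle and 7929, 14397, 7085, 5282 and 5874 in PE, so that replicate 2 alone reached the vehicle range (-1.04 ± 0.20, adjusted p = 0.000337). The dimmer stood near the lower end of the scale, at 93.9, 107, 115, 103 and 106 against 119, 122, 95.8, 124 and 150, with 0.18 ± 0.23 (adjusted p = 0.598), the only member above 0. What each dim probe set detects was not tested.

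The membrane arm held 18 supernumerary genes, and all of them fell, with a median of -1.14. Ndufb8, a membrane subunit widely used as a protein marker of assembled complex I, had the lowest fold change of all members. Its signals were 3422, 2636, 2443, 3079 and 4499 in vehicle outflow and 1263, 872, 885, 945 and 652 in PE outflow. Every PE array lay below every vehicle array by a wide margin, and limma gave -1.78 ± 0.17 on the log2 scale (3.43-fold lower, adjusted p = 4.03e-07). Ndufa8 (-1.34 ± 0.15), Ndufb11 (-1.33 ± 0.13), Ndufa13 (-1.28 ± 0.16), Ndufb7 (-1.27 ± 0.23), Ndufb5 (-1.25 ± 0.21), Ndufb6 (-1.25 ± 0.14) and Ndufc1 (-1.22 ± 0.18) came next. Ndufa13, also known as GRIM-19, had signals of 19856, 16574, 16130, 18863 and 18311 in vehicle and 8541, 11604, 7164, 5430 and 5507 in PE.

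PE replicate 2 took a different place in each of Ndufb5, Ndufb9 and Ndufa1. Ndufb5 read 42616, 35922, 37226, 38000 and 39680 in vehicle outflow and 18396, 29678, 17376, 11525 and 10120 in PE (-1.25 ± 0.21, adjusted p = 8.89e-05), without overlap. Ndufb9 read 43456, 38766, 38930, 40982 and 41879 against 23276, 39710, 21136, 19326 and 16553. Here PE replicate 2 lay among the vehicle arrays, and the change was -0.83 ± 0.17 (adjusted p = 0.000533). The smallest fall of any structural gene was that of Ndufa1, a small membrane subunit encoded on the X chromosome. It had 32060, 30228, 28246, 30297 and 23784 in vehicle and 17756, 32857, 17552, 16690 and 13868 in PE. PE replicate 2 was above all vehicle arrays and the other 4 below all of them, and the change of -0.61 ± 0.17 (adjusted p = 0.00798) became -0.81 without that array and -0.29 (adjusted p = 0.0549) after quantile normalization, where it was no longer called. In a fit of the outflow arrays alone its adjusted p was 0.0569. The rest of the arm lay in between, from Ndufa11 (-1.16 ± 0.17), Ndufa3 (-1.11 ± 0.18) and Ndufb10 (-1.11 ± 0.14) to Ndufb1 (-0.89 ± 0.16), Ndufc2 (-0.87 ± 0.11), Ndufb4 (-0.86 ± 0.12), Ndufb3 (-0.86 ± 0.16) and Ndufb2 (-0.84 ± 0.18). Under quantile normalization the falls of Ndufb4, Ndufb9, Ndufb3, Ndufb1, Ndufc2, Ndufa2, Ndufs6 and Ndufa4 were smaller by over 1.5 times, between -0.59 for Ndufa2 and -0.46 for Ndufb9, and kept their calls. Ndufab1, the mitochondrial acyl carrier protein found in both arms, fell by 1.19 ± 0.16.

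**Figure D2:**
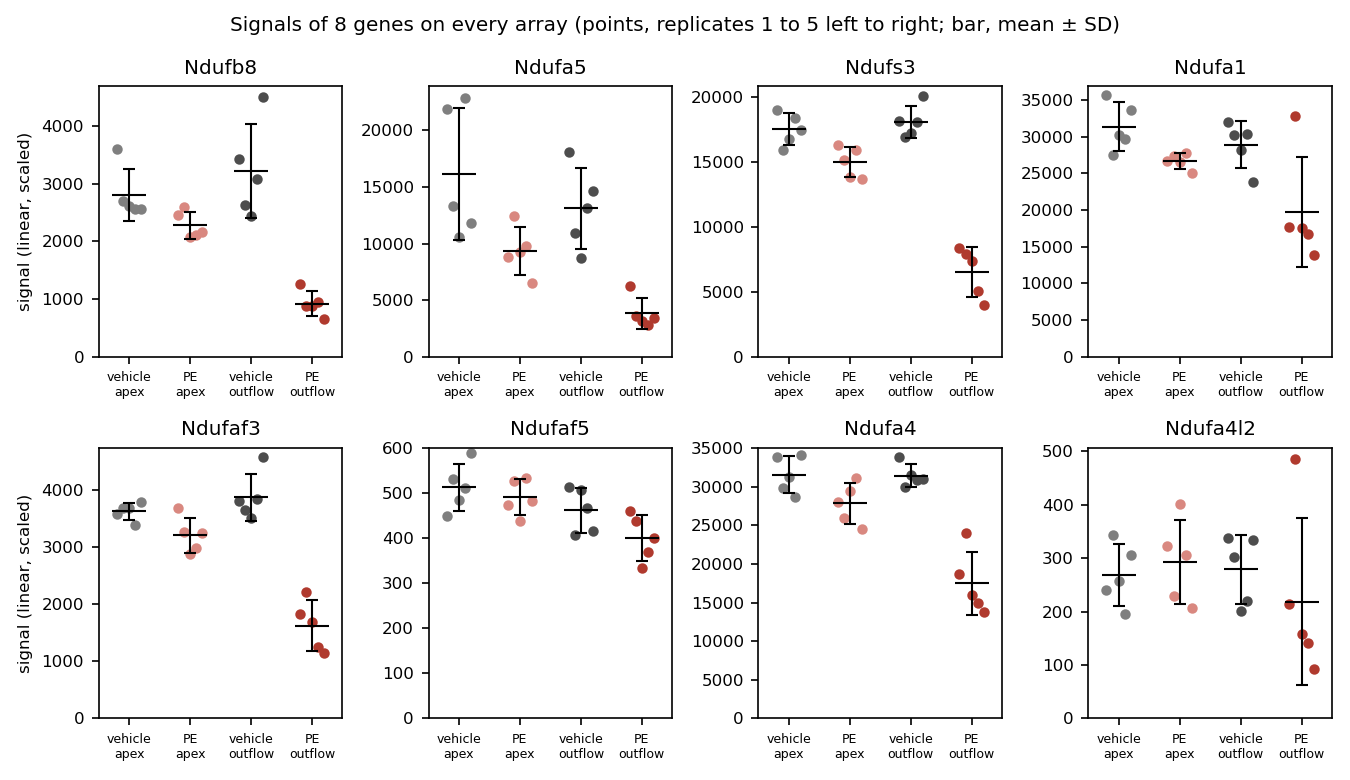
Signal (linear, scaled by the authors) of 8 genes on every array in the 4 groups; points are replicates 1 to 5 from left to right, and bars give the mean ± SD of 5 arrays. For Ndufb8, Ndufa5, Ndufs3, Ndufaf3 and Ndufa4 the PE outflow arrays lie below all vehicle outflow arrays, while for Ndufa1 and Ndufa4l2 replicate 2 stands above the rest of its group.

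Over the 34 structural genes, the outflow change was less negative for probe sets with a higher mean signal (Pearson r 0.44, Spearman rho 0.43, mean signals from 2307 to 35335). The correlation used the mean log2 signal over all 20 arrays. These include the PE outflow arrays, so a deeper fall itself lowers the mean, and vehicle signal alone was not used. It is a description across genes on the same arrays, and genes are not independent replicates. Signals of different probe sets are not a scale of transcript number.

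Among the assembly factors, the change ranged from as large as in the core subunits to none that was called. Ndufaf3, which acts with Ndufaf4 early in assembly, read 3797, 3644, 3499, 3828 and 4564 in vehicle outflow and 1826, 2216, 1688, 1241 and 1134 in PE, without overlap (-1.28 ± 0.15, adjusted p = 2.41e-06). Ndufaf8, the partner of Ndufaf5, fell by 1.10 ± 0.15, from 3045 ± 327 (SD, n = 5) to 1436 ± 356. Ndufaf4 had -0.75 ± 0.16 and Ndufaf1, a member of the complex that assembles the membrane arm, -0.63 ± 0.14 (adjusted p = 0.00128), which was -0.46 (adjusted p = 0.0732) with PE outflow replicates 1 and 3 alone. Ndufaf7, a methyltransferase, fell little but evenly on its brighter probe set: 593, 602, 612, 627 and 610 in vehicle against 517, 504, 445, 461 and 432 in PE, -0.36 ± 0.08 (adjusted p = 0.00227). Its dimmer probe set read 266, 270, 229, 261 and 192 against 248, 180, 227, 191 and 179, which overlap (-0.23 ± 0.15, adjusted p = 0.247). Ndufaf5, which hydroxylates a core subunit, read 513, 407, 507, 467 and 415 against 460, 438, 333, 369 and 400, also overlapping. Its change of -0.20 ± 0.11 was not called (adjusted p = 0.196) and was called at -0.34 (adjusted p = 0.0343) when arrays were centred on their medians and at -0.33 (adjusted p = 0.0268) after quantile normalization.

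Ndufa4, the complex IV subunit, fell too. It read 33866, 30011, 31495, 30838 and 31046 in vehicle outflow and 18730, 23991, 16042, 14886 and 13810 in PE, without overlap (-0.87 ± 0.13, adjusted p = 3.02e-05). Ndufa4l2 was dim and scattered, at 337, 303, 201, 220 and 333 against 215, 486, 158, 142 and 91.5. PE replicate 2 was the highest and replicate 5 the lowest of these 10 arrays, and the change of -0.51 ± 0.30 was not called (adjusted p = 0.218). Without PE outflow replicate 2 it was -0.84 and called (adjusted p = 0.00781), with the GAPDH ratio as a covariate -1.03 (adjusted p = 0.0206), and with weighted arrays -0.66 (adjusted p = 0.0416). For Ndufs6 and Ndufa1 that covariate gave -1.32 and -0.97. The ratio was 6.12 on PE outflow replicate 2 and at most 1.83 outside the PE outflow group. A covariate tied in this way to 1 array and 1 group cannot separate short RNA from either of them.

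In the apex, no Nduf probe set was called, and 0.0129% of all probe sets were called higher and 0 lower. The members nevertheless lay mostly on one side of 0: 43 of 46 probe sets and all 34 structural genes had a log2 fold change below 0, against 49.3% of all probe sets. The structural median was -0.23 and the assembly median -0.12, where all probe sets had 0.00 and the bright ones -0.06. After quantile normalization the structural median was -0.10. At an unadjusted p under 0.05, 5 members were lower and 0 higher, where 3.09% of all probe sets were lower and 4.38% higher. In 14 of 46 probe sets every PE apex array was under the vehicle range (1.5% of all probe sets, 8.8% of the bright ones). Members were measured on the same arrays and are not independent of each other.

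The smallest p in the apex belonged to Ndufa5 and Ndufa13. Ndufa5 read 21924, 13334, 10578, 22901 and 11843 in vehicle apex and 8799, 12467, 9293, 9804 and 6545 in PE apex. Vehicle replicates 1 and 4 were far above the other 3, and 4 of the PE values were under the vehicle range (-0.74 ± 0.26, unadjusted p = 0.0107, adjusted p = 0.487 with limma). Ndufa13 had 18160, 16274, 16862, 19008 and 19433 in vehicle and 13339, 13956, 13244, 12618 and 12917 in PE, narrow groups that did not overlap (-0.44 ± 0.16, unadjusted p = 0.0135, adjusted p = 0.508 with limma). Ndufaf8 (-0.39 ± 0.15), Ndufb11 (-0.32 ± 0.13) and Ndufb4 (-0.26 ± 0.12) were the others under 0.05 before adjustment. Ndufb8 and Ndufs3, with their deep outflow falls, had -0.29 ± 0.17 and -0.23 ± 0.16 here.

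Ndufb8 read 3597, 2702, 2616, 2553 and 2567 in vehicle apex and 2453, 2604, 2080, 2108 and 2159 in PE apex, so that 4 PE values were under the vehicle range. For Ndufs3 the values were 19044, 15965, 16791, 18381 and 17521 against 16317, 15197, 13889, 15941 and 13690. For Ndufv2 they were 30358, 26949, 23609, 31499 and 29875 against 24895, 22908, 26595, 25722 and 19777, with 2 PE values under the vehicle range. Ndufb9 was lower on every PE apex array, with 35548, 34412, 35943, 36961 and 31173 against 45004, 36962, 39783, 41060 and 45839. Its highest PE value, 36961, was only just under its lowest vehicle value, 36962, and the change of -0.26 ± 0.17 was not called. Ndufb5 overlapped fully, at 36836, 30808, 34467, 35749 and 31522 against 41559, 32064, 40937, 29377 and 37791. For Ndufa1 the vehicle apex arrays read 35730, 27442, 30216, 29653 and 33696 and the PE apex arrays 26671, 27366, 26573, 27832 and 24999. Ndufv3, Ndufa7 and Ndufaf7, whose probe sets differed in call in the outflow tract, were not called in the apex on either probe set. The brighter probe set of Ndufv3 read 20903, 16255, 19350, 15600 and 16432 in vehicle apex and 15978, 16343, 15052, 15044 and 14994 in PE apex, and the dimmer 253, 367, 369, 324 and 354 against 320, 310, 239, 269 and 213. Both overlapped. For Ndufa7 the brighter had 17635, 14280, 16408, 16588 and 15379 against 14123, 12771, 12776, 14090 and 11339, without overlap, and the dimmer 162, 87.4, 117, 209 and 81.5 against 94.6, 167, 133, 168 and 70.2, with overlap.

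None of the assembly factors, nor Ndufa4 or Ndufa4l2, was called in the apex. Ndufaf3 read 3577, 3678, 3671, 3377 and 3785 in vehicle apex and 3670, 3251, 2867, 2986 and 3234 in PE apex. Ndufaf5 had 449, 531, 484, 511 and 588 against 473, 527, 437, 533 and 483, and the groups overlapped. The brighter probe set of Ndufaf7 read 683, 657, 663, 708 and 639 against 568, 607, 568, 617 and 597, without overlap (-0.18 ± 0.08, adjusted p = 0.674 with limma). Its dimmer probe set read 223, 338, 284, 361 and 253 against 329, 326, 275, 243 and 256, which overlap. Ndufaf1 and Ndufaf4 were both at 0.02. Ndufa4 read 33891, 29877, 31238, 28722 and 34069 against 28063, 25989, 29511, 31187 and 24512, and Ndufa4l2 241, 343, 257, 195 and 306 against 323, 229, 401, 305 and 206 (0.11 ± 0.30), both with overlap.

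**Figure D3:**
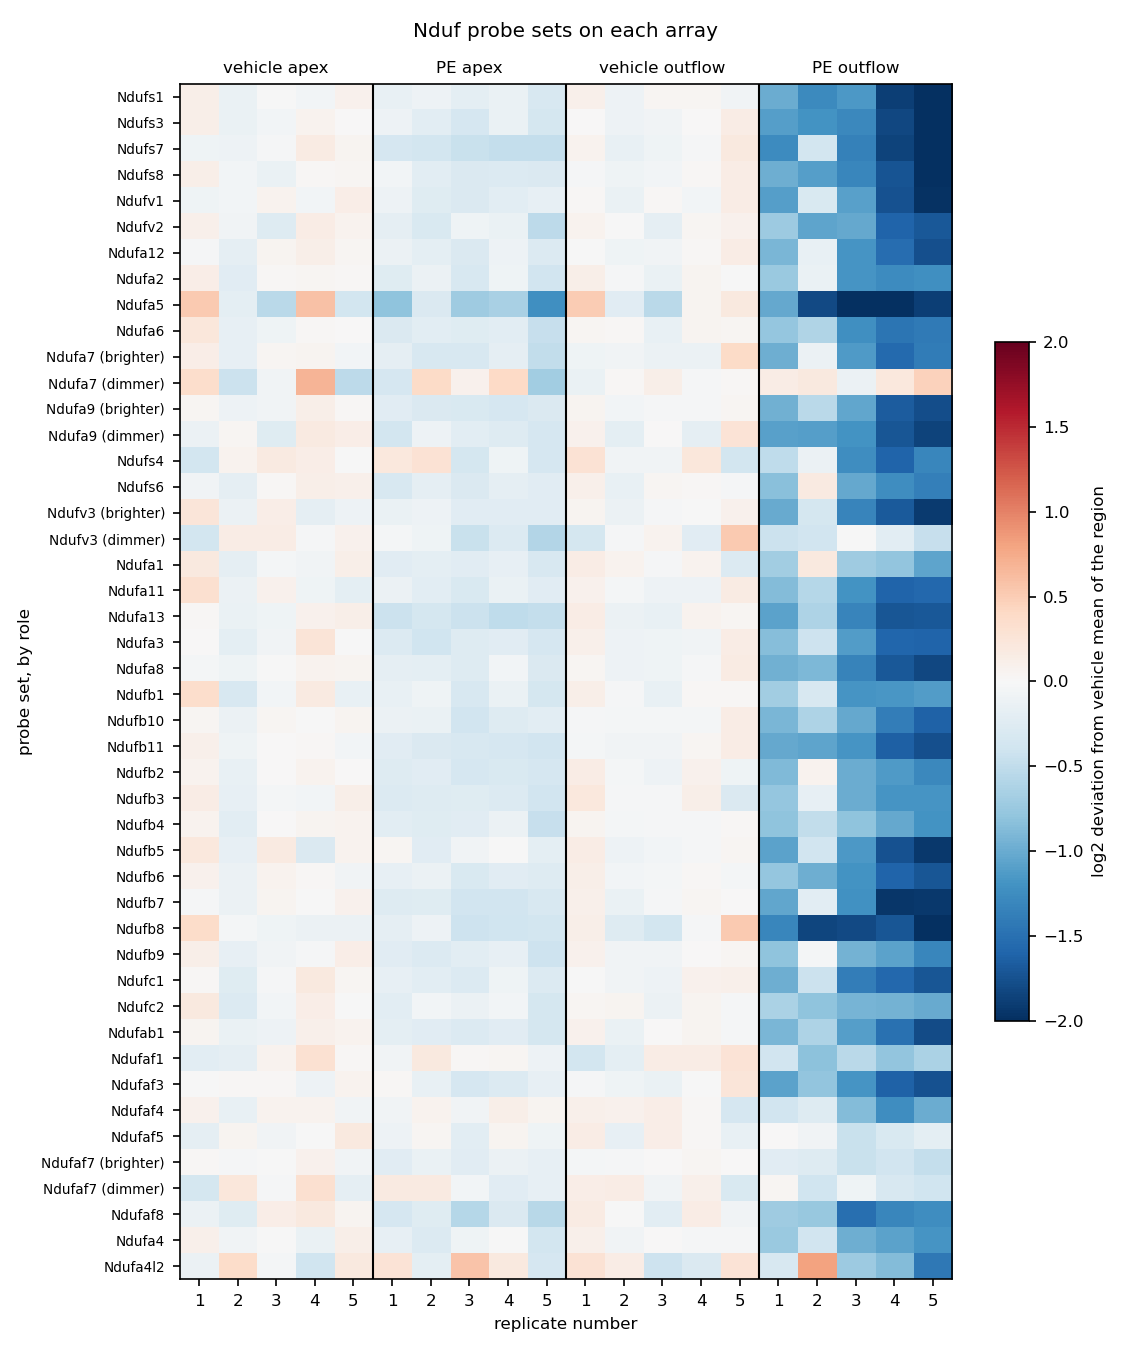
Log2 deviation (colour) of each of the 46 Nduf probe sets on each of the 20 arrays from the vehicle mean of the same region, ordered by role; colours end at 2 in either direction and larger deviations take the end colour. The PE outflow columns are blue in nearly all rows, and the PE apex columns are faintly blue. For most structural genes the PE outflow columns are palest in replicate 2 and darkest in replicates 4 and 5.

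The PE effect was then compared between the regions. It was more negative in the outflow tract for 31 of 46 probe sets and less negative for 0, where 8.09% of all probe sets and 35.2% of the bright ones were called more negative and 9.84% of all less (limma, adjusted p under 0.05). All 6 core subunits were among them, with 14 of 18 membrane arm genes, 4 of 9 supernumerary genes of the peripheral arm, Ndufab1, Ndufa4 and 4 of 6 assembly genes. The largest difference was that of Ndufb8, -1.49 ± 0.25 (adjusted p = 0.000735), followed by Ndufs3, -1.29 ± 0.23 (adjusted p = 0.00108), and Ndufs1, -1.29 ± 0.23 (adjusted p = 0.0011). Ndufaf3 led the assembly factors at -1.10 ± 0.21, while Ndufaf5 (-0.14 ± 0.16) and Ndufaf7 (-0.18 ± 0.12) were not called. The structural median of the difference was -0.92 and that of the assembly genes -0.68, and 39 of 46 probe sets were lower at an unadjusted p under 0.05 (13.3% of all probe sets).

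Structural genes for which the difference was not called were Ndufa1 (-0.38 ± 0.24), Ndufb2 (-0.55 ± 0.25), Ndufb3 (-0.57 ± 0.22), Ndufb9 (-0.57 ± 0.23), Ndufs6 (-0.62 ± 0.28), Ndufa2 (-0.68 ± 0.24), Ndufa7 (-0.74 ± 0.28), Ndufs4 (-0.90 ± 0.33) and Ndufa5 (-1.04 ± 0.37). Their adjusted p ran from 0.0557 for Ndufa5 to 0.308 for Ndufa1. Without PE outflow replicate 2 the count rose to 40 of 46, and 8 of these 9 were then called, as was Ndufa4l2. Ndufa5, the ninth, was not called without that array, but it was called without 5 other arrays, each in turn (PE outflow replicate 1, PE apex replicate 5, vehicle apex replicate 1 or 4, or vehicle outflow replicate 3). With the rat as a random block Ndufa5 and Ndufa2 were called as well (adjusted p = 0.0431 and 0.0454), which made 33. In the other direction, the calls of Ndufb7, Ndufb1, Ndufs7, Ndufa12, Ndufaf1, Ndufaf8 and Ndufa3 ended on leaving out 1 array: any of 18 of the 20 arrays for Ndufb7, 13 for Ndufb1, 7 for Ndufs7, 6 for Ndufa12, 4 for Ndufaf1 and 3 each for Ndufaf8 and Ndufa3. After quantile normalization the count was 25, and the calls of Ndufa13 (adjusted p = 0.0515), Ndufaf4 (0.0511), Ndufs7, Ndufb1, Ndufb7 and Ndufa3 ended. Median centring gave 37, adding Ndufa2, Ndufa5, Ndufa7, Ndufb3, Ndufb9 and Ndufs4. With the GAPDH ratio as a covariate Ndufaf1 was not called (adjusted p = 0.0958), nor were Ndufaf1 (0.196) and Ndufaf8 (0.063) with PE outflow replicates 1 and 3 alone, while the counts were 38 and 35. With single arrays left out the count was lowest, 24, without vehicle apex replicate 2 or PE outflow replicate 4.

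Between the regions of vehicle rats no member was called, and 0 of 31042 probe sets were. At an unadjusted p under 0.05 it was 0 of 46 members, against 3.71% of all probe sets. The structural median was -0.02 and its genes ranged from -0.27 for Ndufa5 to 0.17 for Ndufb8. The brighter probe set of Ndufaf7 was the only member whose groups did not overlap, lower in the outflow tract (-0.13 ± 0.08, adjusted p = 1 with limma), as were 0.467% of all probe sets. In PE rats the outflow tract was lower than the apex for 42 of 46 probe sets and higher for 0, where 12.7% of all probe sets were lower and 16% higher. Of the bright probe sets 47.3% were lower. All 34 structural genes were called, with a median of -0.93 and values from -1.32 for Ndufb8 to -0.50 for Ndufa1 (adjusted p = 0.0317, lost without any 1 of 8 arrays). The call of Ndufb2 ended without PE outflow replicate 3, 4 or 5 and after quantile normalization (adjusted p = 0.0717), and that of Ndufs6 without PE outflow replicate 4 or 5. The dimmer probe set of Ndufaf7 lost its call without any 1 of 4 arrays and with the GAPDH ratio as a covariate (adjusted p = 0.161). With PE outflow replicates 1 and 3 alone, both probe sets of Ndufaf7 (adjusted p = 0.0511 and 0.453) and Ndufa5 (0.0546) were not called. The 4 members not called were Ndufa4l2, Ndufaf5 and the dimmer probe sets of Ndufa7 and Ndufv3.

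Within single rats, the median over the 34 structural genes of outflow minus apex was -0.75, -0.28, -0.91, -1.35 and -1.36 in PE rats 1 to 5. In vehicle rats it was -0.05, 0.05, -0.09, -0.03 and 0.00. All PE rats lay below all vehicle rats, rat 2 nearest to them. In PE rats 1, 3, 4 and 5 all 34 genes were lower in the outflow tract, and in rat 2 it was 25.

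Cardiomyocyte markers moved with the complex I genes. The tissue carried its label: 19 of 20 listed markers were measured, with mean signals from 5075 for Myom1 to 50458 for Tnnt2. In the outflow tract 17 of the 19 fell, with a median of -0.88. Among all probe sets 14.9% fell there, and of the bright ones 49.6%. In the apex 0 of the 19 markers were called (median -0.18). On the PE outflow arrays their median deviation was -0.76, -0.01, -0.90, -1.30 and -1.43 in replicates 1 to 5, the same order of arrays as for the structural genes. The structural median lay below the cardiomyocyte median on each of these arrays, by -0.15 to -0.45, against -0.06 to 0.05 on the vehicle outflow arrays. The value of -0.45 was that of replicate 2. The markers include Cox6a2, itself a subunit of complex IV, and without it their medians were -0.77, -0.04, -0.88, -1.22 and -1.39. Structural genes had mean signals from 2307 to 35335, and the part of brightness in this offset was not tested. The summed signal of the 19 markers spanned 264620 to 740157 on the PE outflow arrays and 622938 to 735935 on the vehicle outflow arrays, and its upper end in PE was replicate 2. In the apex it spanned 553408 to 640671 in PE and 628052 to 727584 in vehicle rats.

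Most fibroblast and macrophage markers rose in the same samples, and the other lists were mixed, where 19.6% of all probe sets rose and 14.9% fell. Of 17 fibroblast markers 16 rose in the outflow tract (median 1.66) and 1 in the apex, where 0.0129% of all probe sets rose. The summed signal of the fibroblast markers was 207063 to 252242 on the PE outflow arrays against 79897 to 114756 in vehicle outflow, without overlap. Of 15 macrophage and monocyte markers 14 rose (summed signal 19348 to 48898 against 13119 to 19273). Of 8 smooth muscle markers 6 rose and 2 fell (31697 to 56777 against 26654 to 33518), of 7 adipocyte markers 4 rose and 2 fell (11527 to 17417 against 13515 to 20005), and of 11 endothelial markers 3 rose and 1 fell (26116 to 30642 against 17619 to 23057). In the apex the summed signals of PE and vehicle rats were 109241 to 141401 against 94529 to 106614 for fibroblast markers, 17038 to 22439 against 10943 to 16400 for macrophage and monocyte markers, and 23940 to 28201 against 24415 to 30787 for smooth muscle markers. For adipocyte markers they were 15570 to 20393 against 16354 to 24516, and for endothelial markers 20201 to 23896 against 20543 to 24297. The deposited signals hold no 0, and the dimmest marker was Lep of the adipocyte list, with a mean signal of 6.29. The part of these cell types, and of the GAPDH ratio, in the complex I values was not tested.

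**Figure D4:**
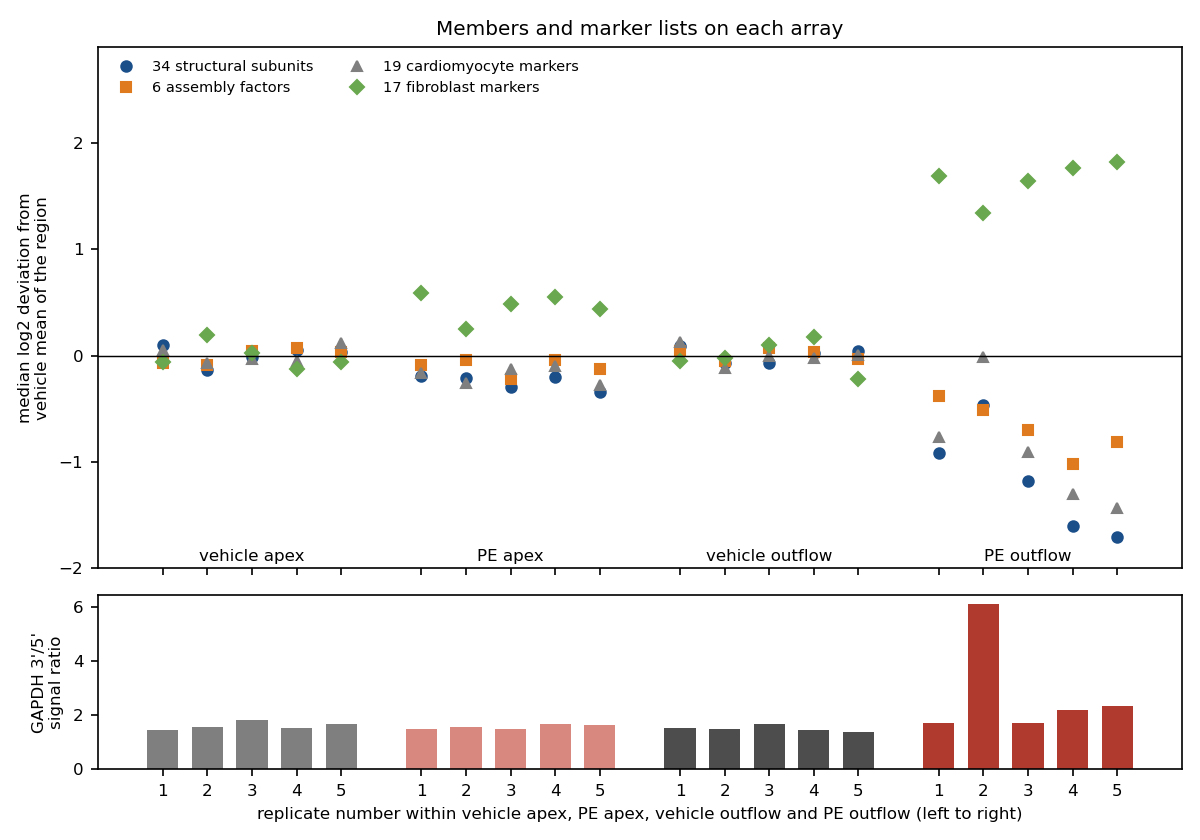
Upper panel: median log2 deviation from the vehicle mean of the region (y axis) of 34 structural genes, 6 assembly factors, 19 cardiomyocyte markers and 17 fibroblast markers on each of the 20 arrays (x axis); lower panel: the 3′ to 5′ signal ratio of GAPDH on the same arrays. In the PE outflow group structural genes and cardiomyocyte markers fall on the same arrays, fibroblast markers rise on all 5, and the GAPDH ratio reaches 6.12 on replicate 2.

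Other genes of the same pathway fell beside the members. Among all probe sets 14.9% fell in the outflow tract and 19.6% rose, and of the bright ones 49.6% fell. Of 11 measured assembly factors of complex I without an Nduf name, 8 fell in the outflow tract and 0 rose, with a median of -0.65. The largest falls were those of Ecsit (-1.44 ± 0.23), a partner of Ndufaf1 in building the membrane arm, Dmac2 (-1.35 ± 0.18), Foxred1 (-1.31 ± 0.16) and Aifm1 (-1.20 ± 0.17). Tmem126b (-0.71), Dmac1 (-0.65), Acad9 (-0.63) and Tmem186 (-0.60) were also called. Timmdc1 (-0.28), Nubpl (-0.21) and Tmem70 (0.73) were not. Of 37 measured subunits of complexes II to V, 36 fell, with a median of -0.92, led by Sdhc of complex II at -1.51 ± 0.16. The 1 not called was Cox5a (-0.61 ± 0.30). In the apex 0 of these 11 and 0 of these 37 genes were called.

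Regulators known to drive genes of the respiratory chain did not all move one way. Of 14 measured, 7 fell, 1 rose and 6 were not called in the outflow tract, with a median of -0.23. Among all probe sets 14.9% fell there and 19.6% rose. The receptor Esrra (-1.66 ± 0.20, adjusted p = 2.75e-06) and its relative Esrrg (-0.97 ± 0.21) fell, as did the coactivators Ppargc1a (-1.40 ± 0.23) and Ppargc1b (-1.41 ± 0.24). Polrmt (-1.06 ± 0.19), Tfb2m (-0.86 ± 0.11) and Tfam (-0.44 ± 0.09), which transcribe mitochondrial DNA, were lower too. Sp1, a general promoter factor, rose by 0.47 ± 0.11. Nrf1 had 0.48 ± 0.19 (adjusted p = 0.0553 with limma), and Gabpa (0.20), Gabpb1 (0.22), Pprc1 (0.16), Tfb1m (-0.02) and Yy1 (0.18) were not called. None of the 14 was called in the apex. Among the members whose promoters held the ETS letters, the outflow change ran from -1.47 for Ndufs1 to -0.61 for Ndufa1, and among those with the NRF1 letters from -1.16 for Ndufa11 to -0.20 for Ndufaf5.

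RefSeq names a pseudogene for 18 of the 42 genes, and Ndufb3, Ndufb4 and Ndufa4 have a like-named gene copy. Whether probes of these members also detect such copies was not tested.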

How the data were processed

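Signal intensities for 31099 probe sets on 20 Affymetrix arrays were used as deposited by the authors. For the software behind them, its name and version were not given in the sources used here. Per the labels' protocols, 5 microgram of total RNA was labelled as biotin cRNA. The mean signal after trimming 2% at either end was 500.2 on every array, so each array had been scaled. Columns of per-sample values left unused numbered 0. After removing 57 control probe sets, 31042 were tested.

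Here 16 was added, log2 taken, and 4 group means fitted to all 20 arrays with limma 3.58.1 (R 4.3.3) for 5 comparisons, with p-values adjusted by Benjamini-Hochberg over all 31042 probe sets in each; a call is an adjusted p under 0.05. The script was tested on simulated data with changes set in the outflow comparison. It recovered 88 of 100 changes of 1 on the log2 scale and 27 of 100 changes of 0.5. Smaller changes were not simulated. Genes were named from the platform annotation, where 20826 of the tested probe sets have 1 symbol, 436 several and 9780 none. Gene names, promoters and pseudogenes came from RefSeq tables (GRCr8), which matched all 42 genes. Adding 16 shrinks the folds of dim probe sets, and the number of arrays limits the precision. Replicates are separate rats.

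Apex and outflow arrays of the same replicate number were taken as coming from 1 rat because each ventricle was divided. Over the 12310 probe sets whose log2 signal averaged more than 8, the deviations of same-numbered arrays correlated at 0.181 to 0.276 in vehicle and 0.181 to 0.283 in PE rats, and 5 of 5 arrays in each treatment correlated best with their own number. Fits with the rat as a block are therefore given as alternatives, beside other added values (1 and 64), median centring, quantile normalization, omission of the 40% dimmest probe sets, array weights, the GAPDH ratio as covariate, trend and robust variances, and each array left out.

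Any member could be named with its fold change. Values of every array are given for the 3 structural subunits with the lowest and the 2 with the highest outflow change, the 2 brightest structural subunits, the extremes of the core subunits and of the assembly factors, Ndufa4, Ndufa4l2, the 2 structural subunits with the smallest p in the apex, and members whose probe sets differed in call in the outflow tract. Members, gene lists and tests were chosen with earlier results of these data known.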

Additional observations from a re-analysis of the deposited data

Results flagged for a closer look

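Single arrays stood apart from the other 4 of their group for 8 of 184 combinations of probe set and group (Dixon's test at its 95% critical value of 0.71, which chance passes in about 1 of 20 groups). On the log2 scale, vehicle outflow replicate 5 was above its group for Ndufa7 (14.31 against 13.81 to 13.87) and Ndufb10 (13.93 against 13.74 to 13.76) and below it for Ndufaf4 (11.70 against 12.05 to 12.17). Vehicle outflow replicate 3 was low for Ndufa6 (14.24 against 14.41 to 14.44). In the apex, vehicle replicate 1 was high for Ndufb8 (11.82 against 11.33 to 11.41), vehicle replicate 2 low for Ndufb4 (14.69 against 14.89 to 14.96), and PE replicate 5 low for Ndufb3 (14.21 against 14.32 to 14.35). PE outflow replicate 2, the array with a GAPDH 3′ to 5′ ratio of 6.12, was high for Ndufa1 (15.005 against 13.76 to 14.12).

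The PE effect differed between outflow tract and apex, by a test of the difference itself (limma, adjusted p under 0.05), for 31 probe sets. Among the core subunits the difference was -1.29 for Ndufs3, -1.29 for Ndufs1, -1.22 for Ndufs8, -1.04 for Ndufv1, -0.97 for Ndufv2 and -0.96 for Ndufs7. In the other subunits of the peripheral arm it was -1.14 and -0.91 for the dimmer and the brighter probe set of Ndufa9, -1.07 for Ndufv3, -0.91 for Ndufa12 and -0.81 for Ndufa6. Membrane arm values were -1.49 for Ndufb8, -1.16 for Ndufb5, -1.15 for Ndufa8, -1.04 for Ndufb6, -1.02 for Ndufb11, -1.01 for Ndufc1, -0.96 for Ndufa11, -0.94 for Ndufb7, -0.89 for Ndufb10, -0.85 for Ndufa13, -0.81 for Ndufa3, -0.71 for Ndufc2, -0.69 for Ndufb1 and -0.61 for Ndufb4. Ndufab1 had -0.93 and Ndufa4 -0.69. Among the assembly factors Ndufaf3 had -1.10, Ndufaf4 -0.77, Ndufaf8 -0.71 and Ndufaf1 -0.65. The part of PE outflow replicate 2 in these values is given by the fits without it, where 40 probe sets were called.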

How the results depend on the processing

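Over the alternatives, the number of Nduf probe sets called was 40 to 42 in the outflow comparison, and it was 0 in the apex and between the regions of vehicle rats under each. For the difference between the regions it ranged from 16, at an adjusted p under 0.01, to 40, and between the regions of PE rats from 37 to 44. With each array left out in turn the counts were 41 to 42 in the outflow tract, 24 to 40 for the difference and 38 to 44 between the regions of PE rats. The structural median was then -1.32 to -1.06 in the outflow tract, -0.28 to -0.21 in the apex and -1.07 to -0.78 for the difference, and the assembly median -0.77 to -0.61, -0.14 to -0.08 and -0.76 to -0.62. Over all alternatives the ranges were wider. The structural median was -1.37 to -0.92 in the outflow tract and -1.11 to -0.77 for the difference, and the assembly median -0.82 to -0.54 and -0.79 to -0.56. Quantile normalization gave an apex structural median of -0.10 and turned Ndufb5 and Ndufa4 in the apex to 0.075 and 0.0089. Other turns of sign in the apex were those of the dimmer probe set of Ndufa7 (0.054 with array weights, -0.16 to 0.14 with an array left out), the dimmer of Ndufaf7 (-0.10 to 0.061 with an array left out) and Ndufa4l2 (-0.011 to 0.22 with an array left out). None of these was called, and the cause was not tested. With the rat as a replicate block the difference was called for 33 probe sets (random block) or 32 (fixed block) in place of 31, and the other counts did not change. Numbers shared across treatments did not pair the arrays (r -0.28 to 0.15), and a replicate block on them left the outflow count at 41. Dim probe sets limit what can be seen of Ndufa4l2, Ndufaf1, Ndufaf5 and the dimmer probe sets of Ndufa7, Ndufv3 and Ndufaf7.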
